A study of Mus musculus with 20 samples.

Results

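The tumor necrosis factor (TNF) superfamily of ligands and its receptors were followed through 5 groups of mouse T cells that differ in the Id proteins Id2 and Id3. Members were the rows of the deposited gene table whose Ensembl identifier carried 1 of 38 listed symbols. All 38 were found among 39179 genes, 15 of them ligands and 23 of them receptors. RNA-seq libraries were made from 20 C57BL/6 samples. The control group held 5 libraries of CD4SP thymocytes (CD4+TCRb+CD8-), labelled wild type, from mice 8 wk of age. The paper names Id3+/- thymi as control for its receptor repertoires and littermates for its expression data. The genotype of the control libraries is therefore uncertain. A second CD4SP group held 3 libraries labelled Id3-/-, a germline allele, from mice that the paper lists at 8 wk of age. The third held 3 libraries labelled Id2-/-Id3-/-, from 8-wk mice with floxed alleles (fl/fl) of both genes and IL7R-Cre, a Cre that acts from lymphoid progenitors on. Follicular helper T (TFH) cells made up 3 libraries of wild-type splenic CD4+TCRb+CD44high CXCR5+ cells, taken after immunization with sheep red blood cells. The last group was 6 Id2-/-Id3-/- lymphomas, of which 4 came from lymph node, 1 from spleen and 1 from thymus. Of these, 4 were sorted as CD3+TCRb+CD4+ cells and 2 as CD3+TCRb+CD8+ cells. The Cre line and mouse age behind each sequenced tumor are not stated in the sources used here. The mice in which the paper lists enlarged lymphoid organs were 8 mo or older.

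The table holds 1 value per gene and group, the average of the normalized counts of that group's libraries. No spread between libraries could therefore be computed, no test was run, and no value below carries an error. Depth per library is unknown, and the averages of a group summed to between 13386015 and 15497262. The average of *Id2* was 2293 in control, 1764 in the libraries labelled Id3-/-, 6.82 in Id2-/-Id3-/- CD4SP, 1628 in TFH cells and 30.5 in lymphomas. For *Id3* the 5 averages were 1991, 2649.7, 879.7, 1777 and 857 in the same order. *Id3* was thus not lower in the libraries labelled Id3-/- than in control, and a value over the whole gene cannot tell what a targeted allele still yields. T-cell genes were abundant in every group, with *Cd3e* between 5245 and 10429. *Cd4* was 15039 in control, 12552 in the libraries labelled Id3-/-, 6565 in Id2-/-Id3-/- CD4SP cells, 20145 in TFH cells and 4110.2 in lymphomas. It was thus past 2-fold lower than control in Id2-/-Id3-/- CD4SP cells (log2 -1.20) and in lymphomas (-1.87). *Cd8a* reached 1388 in lymphomas against 128 in control. Of 9 TFH markers, 8 were past 2-fold higher than control in TFH cells, among them *Cxcr5*, on whose product those cells were sorted. In Id2-/-Id3-/- CD4SP cells 7 were higher, in lymphomas 7 and in the libraries labelled Id3-/- 5, with 0 lower in any group. Of all genes, 11.1% were higher in TFH cells, 13.1% in Id2-/-Id3-/- cells, 17.4% in lymphomas and 4.78% in the libraries labelled Id3-/-.

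TNF superfamily ligands are mostly trimeric membrane proteins on activated lymphocytes and myeloid cells, and some are shed. Their receptors fall into those with a cytoplasmic death domain, which can start apoptosis, and those that recruit TRAF adaptors, activate NF-kB and prolong the response of T and B cells. In the thymus the family shapes the medullary stroma and negative selection, and TFH cells use its members to help germinal center B cells.

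Id2 and Id3 hold E proteins off DNA, and E proteins bind the E-box, CANNTG. The promoters of the members with the largest log2 ratios between Id2-/-Id3-/- and control CD4SP cells are printed here, 3 in each direction, so that the letters around the start sites can be read beside the values. Each window runs from 250 bases before to 50 after the RefSeq start (GRCm38.p6), is written 5′ to 3′ on the strand of the gene, and has every CANNTG in capitals. The first 3 belong to genes with the higher average in Id2-/-Id3-/- cells, *Tnfsf14* (ENSMUSG00000005824, chr17:57194132-57194431, minus strand), *Tnfrsf8* (ENSMUSG00000028602, chr4:145315115-145315414, minus strand) and *Tnfsf10* (ENSMUSG00000039304, chr3:27316827-27317126, plus strand). The other 3 belong to genes with the lower average, *Tnfrsf25* (ENSMUSG00000024793, chr4:152115684-152115983, plus strand), *Lta* (ENSMUSG00000024402, chr17:35205302-35205601, minus strand) and *Tnfrsf4* (ENSMUSG00000029075, chr4:156013445-156013744, plus strand). The *Tnfrsf4* window ends before 156013843, the gene start in the annotation used below for exon lengths and neighbours.
Tnfsf14: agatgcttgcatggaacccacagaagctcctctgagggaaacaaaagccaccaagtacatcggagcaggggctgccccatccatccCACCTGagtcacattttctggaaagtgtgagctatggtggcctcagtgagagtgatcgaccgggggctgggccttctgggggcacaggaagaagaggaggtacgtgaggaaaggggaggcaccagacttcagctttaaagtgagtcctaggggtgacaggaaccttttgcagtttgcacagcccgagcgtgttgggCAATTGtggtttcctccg
Tnfrsf8: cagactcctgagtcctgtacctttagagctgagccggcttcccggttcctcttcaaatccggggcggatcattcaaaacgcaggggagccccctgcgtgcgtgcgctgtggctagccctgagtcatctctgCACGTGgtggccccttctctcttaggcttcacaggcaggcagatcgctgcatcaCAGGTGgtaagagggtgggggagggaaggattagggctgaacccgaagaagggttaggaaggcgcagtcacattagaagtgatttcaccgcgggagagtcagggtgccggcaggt
Tnfsf10: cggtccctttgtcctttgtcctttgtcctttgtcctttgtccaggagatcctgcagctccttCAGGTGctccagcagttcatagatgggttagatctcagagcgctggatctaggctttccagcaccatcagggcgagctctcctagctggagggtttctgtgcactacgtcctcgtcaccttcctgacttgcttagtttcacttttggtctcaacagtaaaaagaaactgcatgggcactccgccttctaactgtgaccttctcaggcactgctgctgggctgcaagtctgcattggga
Tnfrsf25: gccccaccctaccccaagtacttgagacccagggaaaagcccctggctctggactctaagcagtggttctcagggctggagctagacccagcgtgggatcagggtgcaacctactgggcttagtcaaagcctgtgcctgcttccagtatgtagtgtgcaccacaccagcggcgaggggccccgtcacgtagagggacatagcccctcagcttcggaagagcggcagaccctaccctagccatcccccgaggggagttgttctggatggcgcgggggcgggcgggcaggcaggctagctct
Lta: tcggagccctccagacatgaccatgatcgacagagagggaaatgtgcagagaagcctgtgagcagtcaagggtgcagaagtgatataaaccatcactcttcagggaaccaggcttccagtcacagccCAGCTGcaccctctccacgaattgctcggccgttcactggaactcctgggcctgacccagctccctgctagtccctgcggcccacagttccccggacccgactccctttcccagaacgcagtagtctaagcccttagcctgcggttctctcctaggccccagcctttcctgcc
Tnfrsf4: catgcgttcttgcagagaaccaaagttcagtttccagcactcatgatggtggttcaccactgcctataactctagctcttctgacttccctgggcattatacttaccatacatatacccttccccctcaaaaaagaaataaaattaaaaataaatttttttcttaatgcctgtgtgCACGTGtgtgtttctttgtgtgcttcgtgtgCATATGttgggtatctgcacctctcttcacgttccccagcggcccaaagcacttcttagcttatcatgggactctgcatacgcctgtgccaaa

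RefSeq windows were matched for 29 of the 38 members, 33 windows in all, and none was matched for *Tnfsf4*, *Tnfsf9*, *Tnfsf12*, *Cd40lg*, *Cd70*, *Cd40*, *Tnfrsf10b*, *Tnfrsf22* and *Tnfrsf26*. CANNTG, searched on both strands, was found in 27 of the 33 windows (81.8%), against 72.3% of 32851 windows of the same length. CAGGTG or its reverse complement CACCTG, which are themselves forms of CANNTG, stood in 10 windows (30.3%), against 20.2% of all. Among the members past 2-fold in Id2-/-Id3-/- cells, the first window held CAGGTG or CACCTG in 4 of 5 matched genes with the higher average and in 2 of 7 with the lower one. Of the 4, *Tnfrsf9* was only 2.02-fold higher and had a second window with 0 such matches. The same shares were not computed over all genes past 2-fold, so no link to the direction can be read from these few genes. These matches describe letters and were not tested against the expression values.

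Averages of the members ran from 0 to 6813 (plot of group averages). Per kb of exon, the 2 highest in control were *Ltb*, whose averages went from 1067 to 6813, and *Cd27*, whose averages went from 4575 to 5512. An average of 10 was reached in all 5 groups by 24 members and in some groups only by 10 members, namely *Fasl*, *Tnfsf4*, *Tnfsf13b*, *Tnfrsf21*, *Cd40*, *Tnfrsf8*, *Tnfrsf13c*, *Ltbr*, *Tnfrsf11a* and *Tnfrsf19*. *Cd70*, *Tnfsf12*, *Tnfsf13* and *Tnfrsf17* stayed under 10 in every group. That left 34 members, 12 ligands and 22 receptors, beside 15536 genes of the table that reached 10 in at least 1 group. Ratios were taken as log2 with 1 added to both averages, which understates differences of low genes. A member was counted as past 2-fold at a log2 ratio of at least 1 in size with at least 10 in the higher group.

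**Figure D1:**
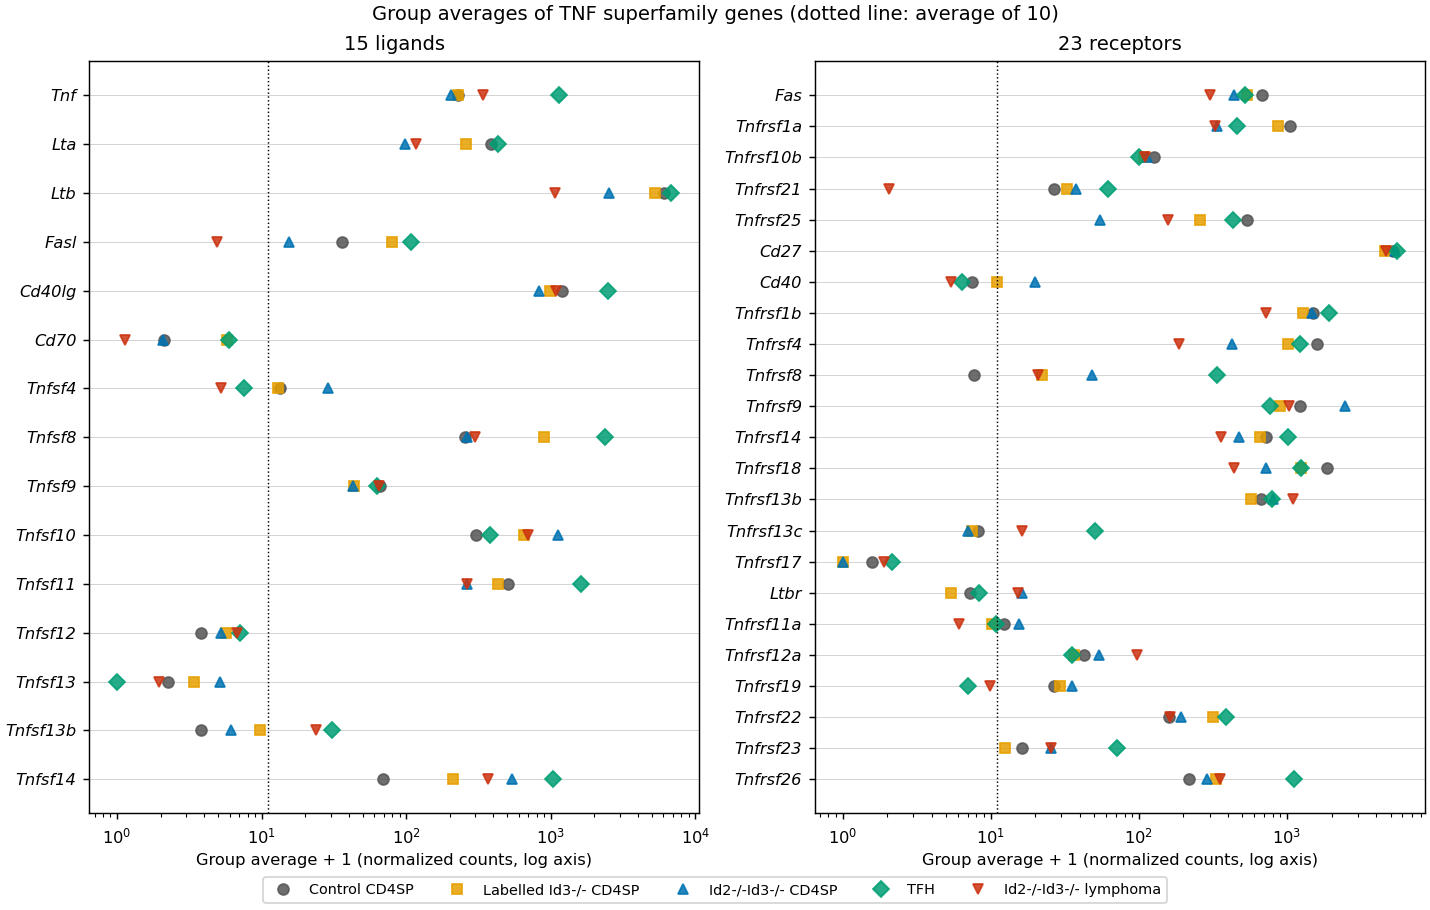
Group averages of the 15 ligands (left) and 23 receptors (right), in normalized counts plus 1 on a log axis, with 1 symbol per group and a dotted line at an average of 10. *Cd27* sits between 4575 and 5512 in all 5 groups, whereas *Tnfrsf8* extends from 6.68 in control to 336 in TFH cells.

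In Id2-/-Id3-/- CD4SP cells 7 members were past 2-fold higher than control and 7 lower. Of all 15536 genes, 13.1% were higher by this rule and 9.37% lower, against 20.6% of the 34 members each way. With 10 rather than 1 added to both averages 4 were higher and 6 lower, beside 9.65% and 6.76% of all genes. With an average of at least 50 required, 3 of 27 members were higher and 6 lower, beside 10.7% and 7.68% of all genes. The share of members on the higher side was then near that of all genes. The libraries labelled Id3-/- had 5 members higher and 1 lower, beside 4.78% and 3.08% of all genes. TFH cells had 13 members higher and 2 lower, where 11.1% and 8.52% of all genes were past the same line. In lymphomas 6 members were higher and 13 lower than control, and the shares of all genes were 17.4% and 14.9%. With each group scaled to the same sum, which moved the median log2 ratio of all genes in lymphomas from 0.02 to -0.18, 4 members were higher and 15 lower, beside 14.2% and 18.5% of all genes. Against Id2-/-Id3-/- CD4SP cells, lymphomas had 3 members higher and 11 lower, beside 10.4% and 12.4% of all genes. The first 4 comparisons use the same control average and are not independent of each other. The TFH cells and most lymphomas also came from another organ than the thymocytes, so that organ and cell type cannot be told apart. Lymphomas arose in older mice by the paper's account, so that age too cannot be told apart in comparisons with them. In bulk RNA such as this, fewer cells of a type and less RNA per cell cannot be told apart.

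**Figure D2:**
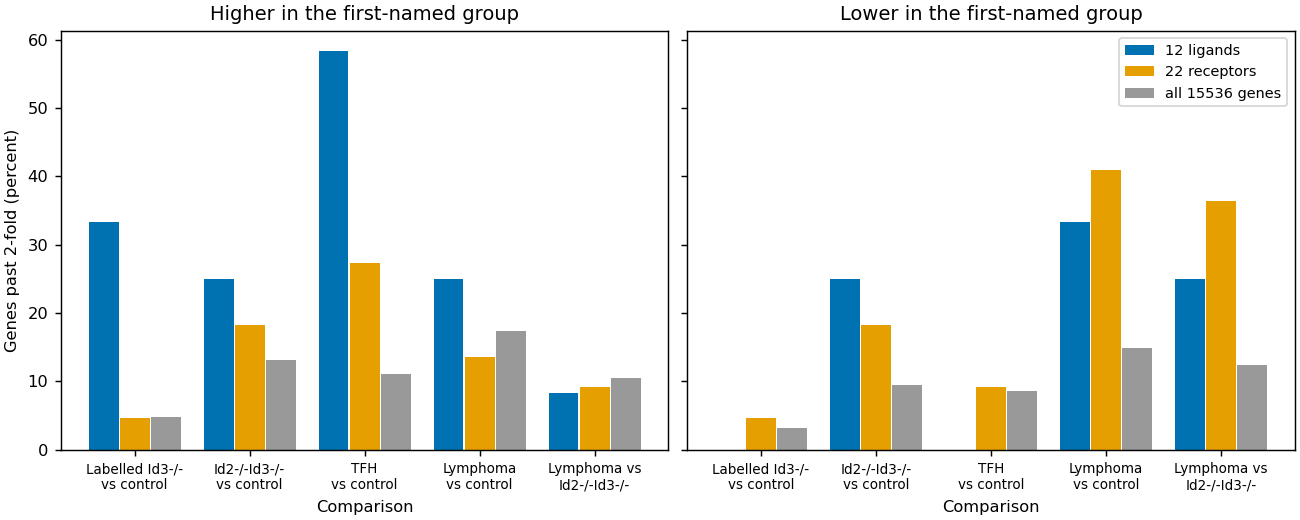
Percent of 12 ligands, 22 receptors and all 15536 genes past 2-fold, higher (left) or lower (right) in the first-named group, for each of the 5 comparisons. In TFH cells 7 of 12 ligands are on the higher side, and in lymphomas 9 of 22 receptors are on the lower side of control.

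Ligands were mostly higher in TFH cells. Of the 12 that reached 10, 7 were past 2-fold higher than control and 0 lower, beside 11.1% and 8.52% of all genes. Their median log2 ratio was 1.31 against -0.02 over all genes. The highest average was in TFH cells for 9 of the 12, and for 22.9% of all genes. In Id2-/-Id3-/- CD4SP cells 3 ligands were higher and 3 lower, beside 13.1% and 9.37% of all genes. In the libraries labelled Id3-/- 4 were higher and 0 lower, beside 4.78% and 3.08%. In lymphomas 3 were higher and 4 lower, beside 17.4% and 14.9%.

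*Tnfsf14* encodes LIGHT, a costimulatory ligand of HVEM and of the lymphotoxin-beta receptor. Its averages were 68.6 in control, 210.3 in the libraries labelled Id3-/-, 535 in Id2-/-Id3-/- CD4SP cells, 1041 in TFH cells and 369 in lymphomas. It was the only ligand past 2-fold higher in all 4 groups set against control, with log2 ratios of 1.60, 2.95, 3.91 and 2.41 in that order. *Tnfsf10* encodes TRAIL, an apoptosis-inducing ligand. It averaged 301 in control, 655 in the libraries labelled Id3-/-, 1112 in Id2-/-Id3-/- cells, 377 in TFH cells and 699 in lymphomas. The 3 groups with the label of an Id deletion lay above control and TFH cells, and the log2 ratio in Id2-/-Id3-/- cells was 1.88, or 3.69-fold.

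*Tnfsf8* encodes CD30 ligand, found on activated T cells. Averages of 252, 902, 262, 2359 and 299 were listed for control, the libraries labelled Id3-/-, Id2-/-Id3-/- CD4SP, TFH and lymphoma. It was thus high in TFH cells (9.32-fold) and in the libraries labelled Id3-/- (3.56-fold), whereas the averages of Id2-/-Id3-/- cells and lymphomas lay within 2-fold of control. *Fasl* encodes Fas ligand, which kills Fas-bearing cells. In the same order its averages were 35.1, 79.4, 14.4, 108 and 3.89. The libraries labelled Id3-/- (log2 1.16) and TFH cells (1.59) lay above control, and Id2-/-Id3-/- cells (-1.23) and lymphomas (-2.88) below it. *Fasl* therefore stood on opposite sides of control in the libraries labelled Id3-/- and in Id2-/-Id3-/- CD4SP cells. With only group averages that difference was not tested.

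The lymphotoxin genes were lower in both Id2-/-Id3-/- groups. *Ltb*, whose product anchors lymphotoxin at the membrane, averaged 6064 in control, 5234 in the libraries labelled Id3-/-, 2508 in Id2-/-Id3-/- CD4SP cells, 6813 in TFH cells and 1067 in lymphomas. It was 2.42-fold lower than control in Id2-/-Id3-/- CD4SP cells, 5.68-fold lower in lymphomas, and 2.35-fold lower in lymphomas than in Id2-/-Id3-/- CD4SP cells. *Lta*, which encodes its partner chain, averaged 385, 259, 97.4, 432 and 116 in the same groups. The ratio was 3.92-fold lower in Id2-/-Id3-/- cells and 3.29-fold lower in lymphomas, whereas TFH cells lay within 2-fold of control for both genes.

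*Tnf*, the inflammatory cytokine that names the family, lies beside the lymphotoxin genes but had another pattern. Its averages were 226 in control, 227 in the libraries labelled Id3-/-, 204 in Id2-/-Id3-/- cells, 1143 in TFH cells and 338 in lymphomas. Only TFH cells stood apart, at 5.04-fold above control. *Cd40lg*, the signal with which helper T cells license B cells, averaged 1203, 987, 826, 2471 and 1094 in the same order. TFH cells were again highest, at 2.05-fold, just past the line, and the other groups were within 2-fold of control. *Tnfsf11* encodes RANKL, the thymocyte ligand that matures medullary epithelium. It averaged 501 in control, 427 in the libraries labelled Id3-/-, 261 in Id2-/-Id3-/- cells, 1622 in TFH cells and 262 in lymphomas. TFH cells were 3.23-fold higher, and the log2 ratios of -0.94 in Id2-/-Id3-/- cells and -0.93 in lymphomas fell just short of the line.

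The remaining ligands averaged at most 65.1. *Tnfsf4*, which encodes OX40 ligand, averaged 12.3 in control, 12.0 in the libraries labelled Id3-/-, 27.8 in Id2-/-Id3-/- cells, 6.55 in TFH cells and 4.26 in lymphomas. Its highest average was thus in Id2-/-Id3-/- CD4SP cells and its lowest in lymphomas, 5.48-fold apart. *Tnfsf13b* encodes BAFF, a B-cell survival factor made mainly by myeloid and stromal cells, and its averages were 2.78, 8.75, 5.15, 29.8 and 22.8 in the same order. TFH cells and lymphomas were the 2 groups over 10. Of 13 myeloid and dendritic markers that reached 10, 5 were past 2-fold higher than control and 1 lower in TFH cells. In lymphomas 8 were higher and 0 lower. *Tnfsf13b* was under 10 in Id2-/-Id3-/- cells, with 4 markers higher and 0 lower, and in the libraries labelled Id3-/-, with 6 higher and 1 lower. Of all genes 11.1% were higher and 8.52% lower in TFH cells, and 17.4% and 14.9% in lymphomas. The shares were 13.1% and 9.37% in Id2-/-Id3-/- cells, and 4.78% and 3.08% in the libraries labelled Id3-/-. *Csf1r* was 5.86 in control, 21.3 in TFH cells and 30.9 in lymphomas, whereas *Itgam* was 69.4, 28.9 and 274. The 17 markers summed to 1601, 1965, 2291, 2737 and 2576 over the 5 groups, none of them at 0 in any group. Most of each sum lay in *Cst3*, at 801, 877, 1231, 961 and 691, and *Cd74*, at 638, 709, 442, 1250 and 1009. Without *Cd74* the sums were 964, 1255, 1850, 1487 and 1567, with *Cst3* still in them. The sums therefore say little about the other markers. The part of myeloid cells in the *Tnfsf13b* averages was not tested. *Tnfsf9*, which encodes the ligand of 4-1BB, ranged only from 41.7 to 65.1 and was within 2-fold of control in every group. *Cd70*, the ligand of CD27, reached at most 4.96. *Tnfsf12*, which encodes TWEAK, reached at most 6.11. *Tnfsf13*, which encodes APRIL, reached at most 4.19 and was listed at 0 in TFH cells. Of the 50-base words of *Tnfsf12* and *Tnfsf13*, 46.8% and 57.3% also occur in the readthrough gene *Tnfsfm13*, so the assignment of reads among these genes is uncertain.

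Receptors with a death domain were mostly lower in lymphomas than in control, 4 of 5, where 14.9% of all genes were. Only 2 of 5 were lower in Id2-/-Id3-/- CD4SP cells, beside 9.37% of all genes, and 0 higher. *Tnfrsf25* encodes DR3, a receptor of T cells for TL1A. Its averages were 539 in control, 257 in the libraries labelled Id3-/-, 53.8 in Id2-/-Id3-/- CD4SP cells, 429 in TFH cells and 157 in lymphomas. All 3 groups with an Id label lay past 2-fold below control, by 2.09-, 9.85- and 3.42-fold, and lymphomas lay 2.88-fold above Id2-/-Id3-/- CD4SP cells. It was the only member past 2-fold lower in the libraries labelled Id3-/-. *Tnfrsf1a* encodes the main TNF receptor with a death domain. It averaged 1042, 864, 335, 455 and 327 in the same order. Control and the libraries labelled Id3-/- were within 2-fold of each other, and the other 3 groups were lower, by 3.11-fold in Id2-/-Id3-/- cells, 2.29-fold in TFH cells and 3.18-fold in lymphomas.

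*Tnfrsf21* encodes DR6, a death receptor that restrains T-cell and B-cell responses. Averages of 25.8, 31.7, 36.4, 60.7 and 1.05 were listed for control, the libraries labelled Id3-/-, Id2-/-Id3-/- CD4SP, TFH and lymphoma. Lymphomas stood far below the other groups, at 13.1-fold below control and 18.3-fold below Id2-/-Id3-/- CD4SP cells. *Fas*, the receptor of Fas ligand, averaged 677 in control, 532 in the libraries labelled Id3-/-, 436 in Id2-/-Id3-/- cells, 519 in TFH cells and 303 in lymphomas. Only the lymphomas lay past 2-fold, at 2.23-fold lower. *Tnfrsf10b*, the death receptor of TRAIL in mice, ranged from 99.4 to 126 and was within 2-fold of control in every group.

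Costimulatory receptors, 8 in number, were split in Id2-/-Id3-/- CD4SP cells, with 3 past 2-fold higher and 2 lower than control, beside 13.1% and 9.37% of all genes. Against those cells, 5 of 8 were lower in lymphomas and 0 higher, beside 12.4% and 10.4% of all genes. Of the 5, *Cd40* and *Tnfrsf8* averaged under 50 in both groups, and *Tnfrsf1b* lay just past the line (log2 -1.03). *Tnfrsf4* encodes OX40 and *Tnfrsf18* encodes GITR, receptors of activated and regulatory T cells. For *Tnfrsf4* the averages were 1582 in control, 1019 in the libraries labelled Id3-/-, 426 in Id2-/-Id3-/- cells, 1226 in TFH cells and 186 in lymphomas. For *Tnfrsf18* they were 1849, 1237, 719, 1249.6 and 437 in the same order. Both genes were highest in control and lowest in lymphomas. *Tnfrsf4* was 3.71-fold lower in Id2-/-Id3-/- cells and 8.48-fold lower in lymphomas, and *Tnfrsf18* 2.57-fold and 4.23-fold lower.

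Regulatory T cells are rich in both receptors. *Foxp3*, which defines them, averaged 591 in control, 481 in the libraries labelled Id3-/-, 280.5 in Id2-/-Id3-/- cells, 1016 in TFH cells and 14.6 in lymphomas. Of 10 regulatory T-cell markers, 4 were past 2-fold higher and 3 lower in Id2-/-Id3-/- cells, beside 13.1% and 9.37% of all genes. In lymphomas 4 were higher and 5 lower, beside 17.4% and 14.9% of all genes. The averages of the 10 markers summed to 8655, 11149.5, 22329, 25204 and 20646 over the 5 groups, and none was at 0 in any group. Most of the difference between the CD4SP groups lay in *Izumo1r*, and without it the sums were 5591, 6201, 5190.5, 15273 and 5087. *Foxp3* was thus lower where *Tnfrsf4* and *Tnfrsf18* were lowest, but was highest in TFH cells, in which neither receptor exceeded control. The part of regulatory T cells in these values was not tested.

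*Tnfrsf8* encodes CD30, a receptor of activated lymphocytes. It averaged 6.68 in control, 21.1 in the libraries labelled Id3-/-, 47.3 in Id2-/-Id3-/- CD4SP cells, 336 in TFH cells and 19.7 in lymphomas. Every group stood past 2-fold above control, with TFH cells at 43.8-fold, which is the widest range of any member, and Id2-/-Id3-/- cells at 6.28-fold. *Tnfrsf9*, which encodes 4-1BB, an activation-induced receptor, averaged 1226, 898, 2477, 769 and 1033 in the same groups. Id2-/-Id3-/- CD4SP cells were highest, 2.02-fold above control and 2.40-fold above lymphomas, and the first of these lies just past the line. *Cd40* encodes the B-cell and myeloid receptor of CD40 ligand, and its averages were 6.46, 10.0, 18.8, 5.40 and 4.39. It was highest in Id2-/-Id3-/- CD4SP cells, at 2.66-fold above control, but low in all groups.

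*Tnfrsf1b* encodes the TNF receptor without a death domain. Averages of 1492 in control, 1289 in the libraries labelled Id3-/-, 1479.9 in Id2-/-Id3-/- cells, 1922 in TFH cells and 722 in lymphomas were listed. The lymphomas alone stood apart, at 2.07-fold below control and 2.05-fold below Id2-/-Id3-/- cells. *Tnfrsf14*, which encodes HVEM, averaged 715, 656, 472, 1019 and 358 in the same order. No group was past 2-fold of control, although the log2 ratio in lymphomas, -0.996, was just outside. *Cd27*, a receptor of naive and memory T cells, varied by 1.20-fold across the 5 groups, the narrowest range of the family.

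**Figure D3:**
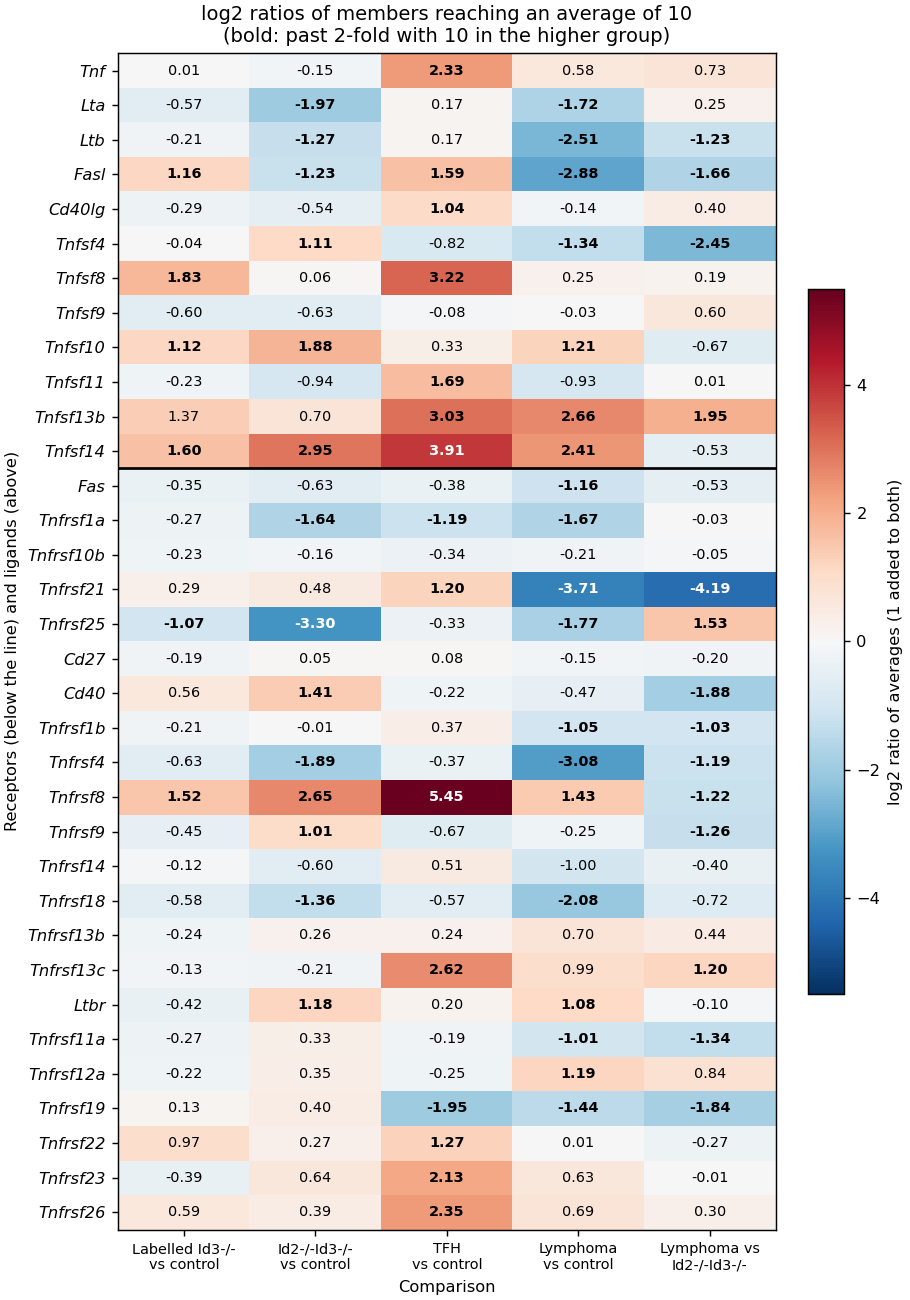
The log2 ratios (1 added to both averages) of the 34 members that reached an average of 10, with ligands above the line and receptors below it, in 5 comparisons. Bold marks values past 2-fold with at least 10 in the higher group, among them 3.91 for *Tnfsf14* in TFH cells, -3.30 for *Tnfrsf25* in Id2-/-Id3-/- CD4SP cells and -3.71 for *Tnfrsf21* in lymphomas.

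Of the 3 receptors of BAFF and APRIL, *Tnfrsf13b* was the highest per kb of exon in every group. It encodes TACI, and its averages ranged from 569 to 1089, with no group past 2-fold of control. *Tnfrsf13c* encodes the BAFF receptor of B cells, and averaged 7.19 in control, 6.48 in the libraries labelled Id3-/-, 6.06 in Id2-/-Id3-/- cells, 49.3 in TFH cells and 15.2 in lymphomas. TFH cells were 6.14-fold above control. *Tnfrsf17*, which encodes BCMA, the receptor of plasma cells, reached at most 1.16 and was listed at 0 in the libraries labelled Id3-/- and in Id2-/-Id3-/- cells. In TFH cells B-cell genes were higher beside *Tnfrsf13c*, 11 of 13 markers past 2-fold above control and 0 below. Of all genes 11.1% were above and 8.52% below. In lymphomas 5 markers were higher and 1 lower, beside 17.4% and 14.9% of all genes. In Id2-/-Id3-/- CD4SP cells 4 were higher and 0 lower, beside 13.1% and 9.37%. In the libraries labelled Id3-/- 3 were higher and 1 lower, beside 4.78% and 3.08%. By the rule *Tnfrsf13c* was not past 2-fold of control in these 3 groups. In lymphomas its log2 ratio of 0.99 fell short only through the 1 added to both averages. There it was also 2.30-fold above Id2-/-Id3-/- CD4SP cells. *Igkc*, an immunoglobulin light chain gene and the marker with the largest log2 ratio in TFH cells, was 9.41 in control, 1669.6 in TFH cells and 1247 in lymphomas. The 13 markers, led by *Ighm*, summed to 1329, 4639.7, 7885, 14609 and 13245 over the 5 groups, with none at 0. Without *Ighm* the sums were 146, 829, 477, 3708 and 2642. *Cd40*, which B cells also carry, was 5.40 in TFH cells against 6.46 in control. The part of B cells in the *Tnfrsf13c* average was not tested.

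The other 7 receptors included 3 mouse genes that lie side by side on chromosome 7. *Tnfrsf26* averaged 219 in control, 329 in the libraries labelled Id3-/-, 287 in Id2-/-Id3-/- cells, 1121 in TFH cells and 353 in lymphomas. *Tnfrsf22* and *Tnfrsf23* encode TRAIL receptors that lack a death domain. The averages of *Tnfrsf22* were 159, 314, 193, 385 and 160.2, and those of *Tnfrsf23* were 15.4, 11.5, 24.4, 70.7 and 24.3. All 3 were highest in TFH cells, at 5.11-, 2.41- and 4.38-fold above control. Of the 50-base words of *Tnfrsf22*, 17.3% also occur in *Tnfrsf23*, so that part of their reads is uncertain.

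*Ltbr*, the lymphotoxin-beta receptor of stromal and myeloid cells, averaged 6.23 in control, 4.40 in the libraries labelled Id3-/-, 15.4 in Id2-/-Id3-/- cells, 7.32 in TFH cells and 14.3 in lymphomas. It was thus over 10 in the 2 groups in which *Ltb* and *Lta* were lower. Of 8 stromal markers that reached 10, 3 were past 2-fold higher and 1 lower in Id2-/-Id3-/- cells, beside 13.1% and 9.37% of all genes. In lymphomas 4 were higher and 2 lower, beside 17.4% and 14.9% of all genes. The listed markers under 10 in every group were *Krt5*, *Krt8*, *Foxn1*, *Col3a1*, *Pdgfra* and *Pdgfrb*. All of these lay below control in lymphomas, with *Col3a1* at 1.48 against 4.07 and *Pdgfrb* at 1.19 against 5.76. In Id2-/-Id3-/- cells all but *Col3a1* lay above control. The 14 listed summed to 2077, 1701, 2635, 2329 and 7299 over the 5 groups, with none at 0. The sum in lymphomas was carried by *Epcam*, at 3797 against 70.7 in control, and *Col1a1*, at 1663 against 24.7. Their part in the *Ltbr* averages was not tested. *Tnfrsf12a*, which encodes the TWEAK receptor Fn14, averaged 41.3, 35.4, 52.7, 34.6 and 95.4 in the same order. Lymphomas were 2.28-fold above control. *Tnfrsf19* encodes TROY, and its averages were 25.9, 28.5, 34.4, 5.98 and 8.90. The 3 CD4SP groups were within 2-fold of each other, and TFH cells and lymphomas were lower, by 3.85- and 2.72-fold. *Tnfrsf11a*, which encodes RANK, the receptor of RANKL, averaged 11.3, 9.23, 14.5, 9.82 and 5.14. Lymphomas were lowest, 2.01-fold below control and 2.53-fold below Id2-/-Id3-/- cells, with all groups around the average of 10 at which a value was counted.

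Ligands and their receptors differed from control together in some pairs and apart in others. *Tnfsf8* and its receptor *Tnfrsf8* were both past 2-fold higher in TFH cells (log2 3.22 and 5.45) and in the libraries labelled Id3-/- (1.83 and 1.52). In Id2-/-Id3-/- CD4SP cells only the receptor was (0.06 and 2.65). *Tnfsf14* and *Tnfrsf14* parted in Id2-/-Id3-/- cells (2.95 and -0.60) and in lymphomas (2.41 and -0.996). *Tnfsf4* and *Tnfrsf4* lay on opposite sides of control in Id2-/-Id3-/- cells (1.11 and -1.89) and were both lower in lymphomas (-1.34 and -3.08). For *Ltb* and *Ltbr* the values were -1.27 and 1.18 in Id2-/-Id3-/- cells and -2.51 and 1.08 in lymphomas. *Fasl* and *Fas* were both lower in lymphomas (-2.88 and -1.16), and *Tnf* was higher in TFH cells where *Tnfrsf1a* was lower (2.33 and -1.19). *Tnfsf10* was higher in Id2-/-Id3-/- cells at a log2 ratio of 1.88, beside -0.16 for *Tnfrsf10b*.

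Members that neighbour each other in the genome (mm10 coordinates) did not share 1 pattern. In all, 20 members had another within 500 kb, in 8 clusters, and 8 members lay on chromosome 4. *Ltb*, *Tnf* and *Lta* lie at chr17:35194439-35205351, with gaps of 3.06 kb and 1.16 kb between them. *Ltb* and *Lta* were past 2-fold lower in Id2-/-Id3-/- cells and lymphomas, whereas *Tnf* between them had log2 ratios of -0.15 and 0.58. *Tnfrsf4* and *Tnfrsf18*, at chr4:156013843-156028895 and 9.55 kb apart, were both lower in the same 2 groups. *Tnfrsf1b* and *Tnfrsf8*, 20.3 kb apart on chromosome 4, had log2 ratios of 0.37 and 5.45 in TFH cells. On chromosome 6, *Cd27*, *Ltbr* and *Tnfrsf1a* lay within 2-fold, above and below control in Id2-/-Id3-/- cells (0.05, 1.18 and -1.64). *Tnfsf9*, *Cd70* and *Tnfsf14* form a cluster on chromosome 17, of which *Tnfsf14* alone was past 2-fold in any comparison.

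Levels were compared between genes after division by the exon length of each gene. Per kb of exon, the ligands summed to 5844 in control, 5326 in the libraries labelled Id3-/-, 3259 in Id2-/-Id3-/- CD4SP cells, 9582 in TFH cells and 2459 in lymphomas. *Ltb* made up 68.5%, 64.8%, 50.8%, 46.9% and 28.6% of these sums. It ranked first per kb in every group except the lymphomas, in which *Cd40lg* came first with 35.6%. The share of *Tnfsf14* was 0.635% in control, 8.88% in Id2-/-Id3-/- cells, 5.88% in TFH cells and 8.13% in lymphomas. Without *Ltb*, the ligand sums were 1843, 1874, 1604, 5088 and 1756 per kb, so that only TFH cells departed from control by more than 2-fold. Receptors summed to 7329.6, 5799, 5602, 7115 and 4223 per kb in the same order. *Cd27* ranked first in all 5 groups, with 30.5% in control and 47.6% in lymphomas. *Tnfrsf18* and *Tnfrsf4* came next in control, with 16.6% and 15.8%, and made up 6.78% and 3.22% in lymphomas. In Id2-/-Id3-/- CD4SP cells the second place was held by *Tnfrsf9*, with 16.2% against 6.15% in control.

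**Figure D4:**
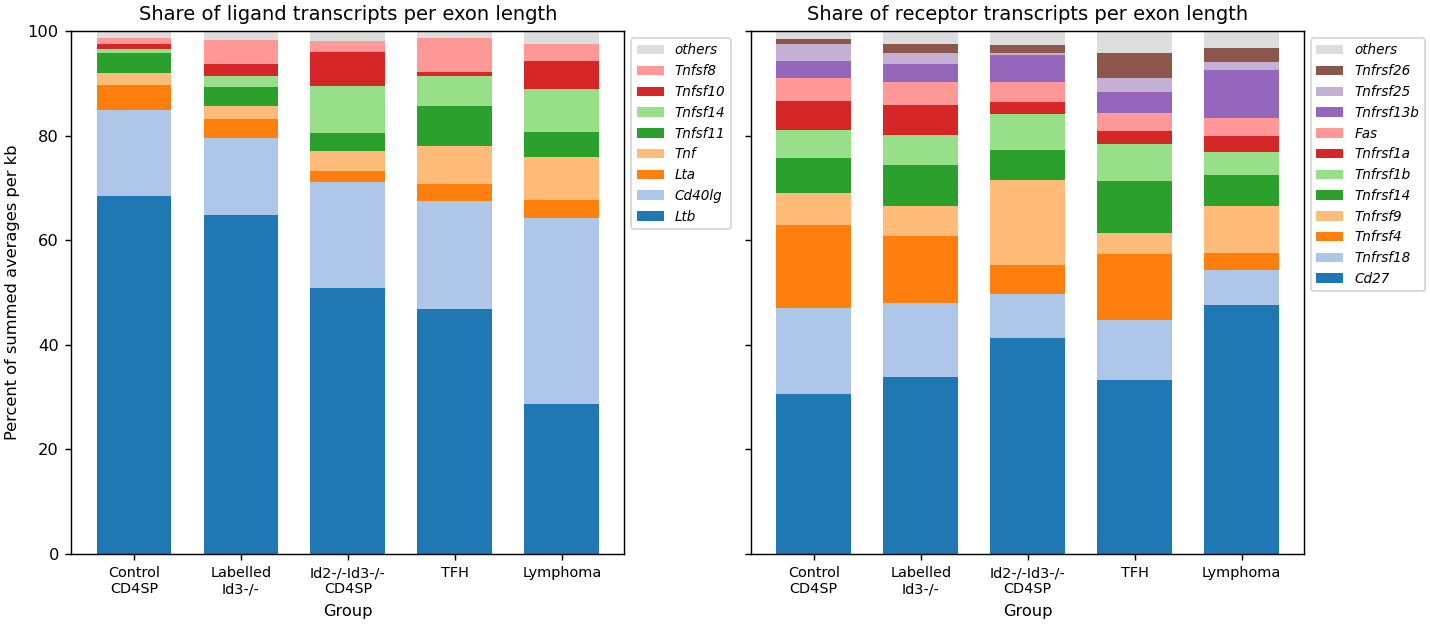
Stacked shares, in percent, of the summed group averages per kb of exon for ligands (left) and receptors (right) in the 5 groups, with the least abundant genes joined as others. The *Ltb* share is 68.5% in control and 28.6% in lymphomas, and the *Cd27* share is 30.5% and 47.6%.

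Read over groups, 18 of the 34 members had their highest average in TFH cells, a place held there by 22.9% of all genes, and 12 had their lowest in lymphomas, against 28.3% of all genes. Lymphomas held the highest average for only 2 members, *Tnfrsf13b* and *Tnfrsf12a*, where 30.4% of all genes had theirs. The median log2 ratio of the 22 receptors was -0.22 in the libraries labelled Id3-/-, 0.27 in Id2-/-Id3-/- cells, -0.05 in TFH cells and -0.36 in lymphomas. Over all genes the same medians lay between -0.02 and 0.02. Only *Tnfsf9*, *Tnfrsf10b*, *Cd27*, *Tnfrsf14* and *Tnfrsf13b* were within 2-fold of control in all 4 groups, 5 of the 34 that reached 10. Values nearest the line were -1.01 for *Tnfrsf11a* in lymphomas and 1.01 for *Tnfrsf9* in Id2-/-Id3-/- cells inside it, and -0.996 for *Tnfrsf14* and 0.99 for *Tnfrsf13c*, both in lymphomas, outside it.

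Downstream of the receptors, 15 TRAF and death-domain adaptor genes and 25 NF-kB genes were read, all of which reached 10. In Id2-/-Id3-/- CD4SP cells 1 adaptor was past 2-fold higher and 4 lower, and 0 NF-kB genes were higher and 3 lower, beside 13.1% and 9.37% of all genes. The medians were -0.46 and -0.56 on the log2 scale, against 0.02 over all genes. In lymphomas 1 adaptor was higher and 4 lower, and 1 NF-kB gene was higher and 5 lower, beside 17.4% and 14.9% of all genes, with medians of -0.56 and -0.24. TFH cells had 2 adaptors higher and 1 lower and 2 NF-kB genes higher and 0 lower, beside 11.1% and 8.52% of all genes. The libraries labelled Id3-/- had *Otulin*, a deubiquitinase, as the 1 gene of both lists past the line, on the higher side, beside 4.78% of all genes.

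*Traf5*, an adaptor of costimulatory receptors, averaged 277 in control, 427 in the libraries labelled Id3-/-, 641 in Id2-/-Id3-/- cells, 949.6 in TFH cells and 571 in lymphomas. It lay above control in every group, past 2-fold in the last 3. *Traf1*, itself an NF-kB target, averaged 979, 1541, 516, 2699 and 275 in the same order. It was highest in TFH cells (log2 1.46) and lowest in lymphomas (-1.83). *Birc3*, a ubiquitin ligase bound to TRAF2, averaged 1273, 1099.9, 521, 1123 and 509. *Bcl3*, an atypical IkB protein, averaged 1179, 675, 282, 783 and 79.7, with log2 ratios of -2.06 in Id2-/-Id3-/- cells and -3.87 in lymphomas. *Map3k14*, the kinase of the noncanonical pathway that *Ltbr*, *Tnfrsf4* and *Cd40* feed, averaged 887, 834, 301, 771 and 532. *Tnfaip3*, which encodes the NF-kB inhibitor A20, went another way, with averages of 1402, 1577, 713, 6820.0 and 4194. It was past 2-fold higher in TFH cells (2.28) and lymphomas (1.58) and had the largest log2 ratio above 0 of both lists in each of these groups.

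**Figure D5:**
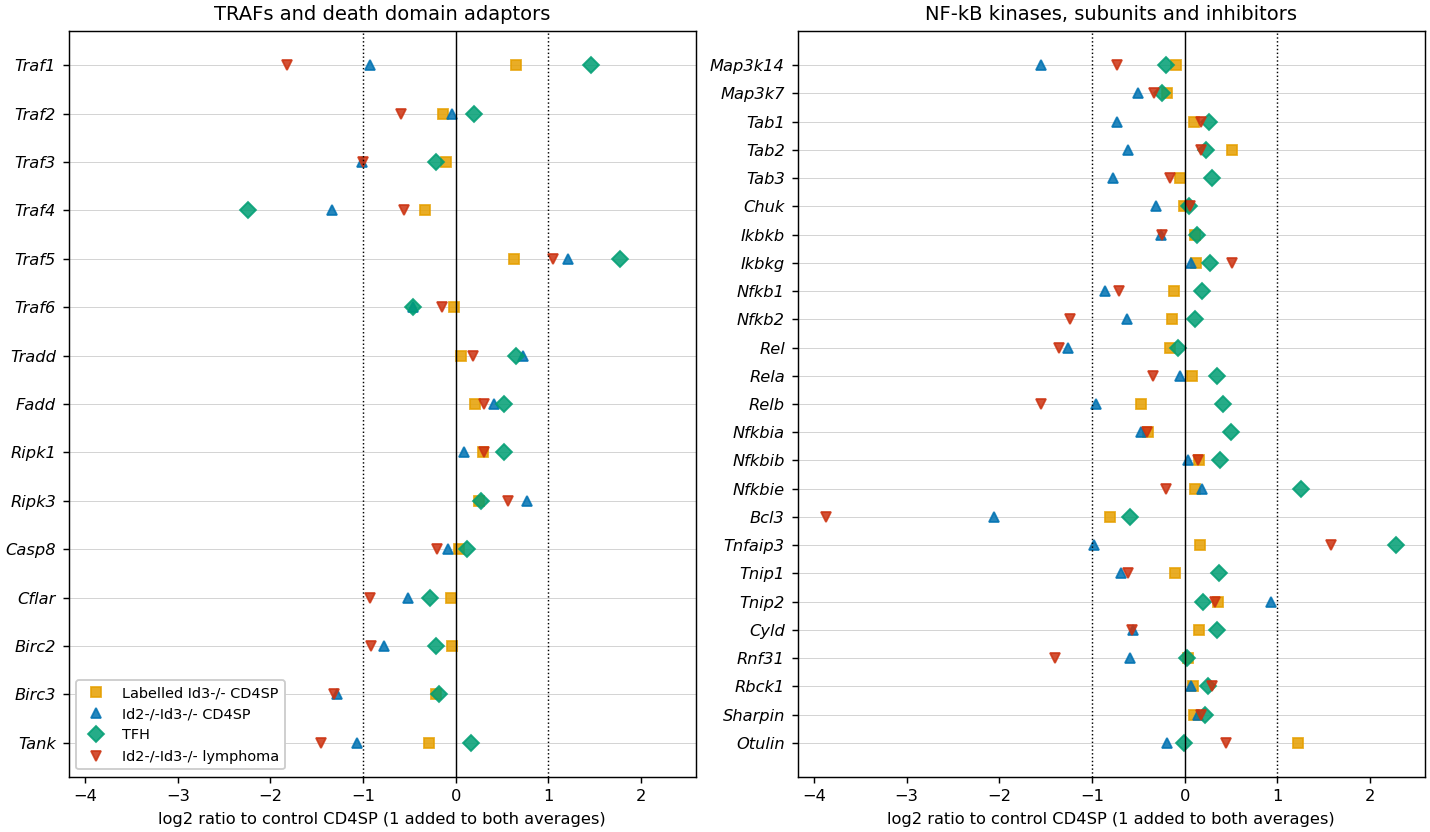
The log2 ratios to control CD4SP cells (1 added to both averages) of 15 TRAF and death-domain adaptor genes (left) and 25 NF-kB genes (right) in the other 4 groups, with dotted lines at -1 and 1. *Bcl3* lies at -3.87 in lymphomas and *Tnfaip3* at 2.28 in TFH cells.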

How the data were processed

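RNA-seq was performed on sorted cells of 20 samples in 5 groups, taken from the sample labels. Strand-specific (dUTP) libraries were read on a HiSeq sequencer. The authors used OSA (Array Studio) for alignment to mm10, RSEM for quantification and DESeq for normalization, and their versions are not given in the sources read here. The deposited signal is 1 average of normalized counts per gene and group, with 0 columns of values per library, so the depth and precision of single libraries are unknown. The authors' fold changes, p-values and false discovery rates, 12 columns for 4 comparisons, were not used.

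Of 39179 identifiers, 37607 carried a symbol. The members and gene lists were chosen with earlier results of these data known. Log2 ratios were computed with 1 added to both averages, for genes averaging at least 10 in 1 group or more (15536). A gene was counted at 2-fold with at least 10 in the higher group. Every member was named. Members past 2-fold in any comparison were given with all 5 averages, members within 2-fold by range, and pathway and marker genes by their largest ratios, with a few further genes (*Map3k14*, *Traf1*, *Csf1r*, *Itgam*, *Izumo1r*, *Epcam*, *Col1a1*, *Cd3e*, *Cd8a*) named after their values were seen. Exon lengths came from GENCODE M21 and promoters from RefSeq (GRCm38.p6). A 50-base word was counted as shared when identical. Python 3.11.15, numpy 2.4.6, pandas 2.3.3 and matplotlib 3.10.9 were used, and the ratios and calls were tested on simulated data. Another 6 settings were tried, on the added count, the filter and the scaling, and 1 more was chosen after seeing the data.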

Additional observations from a re-analysis of the deposited data

How the results depend on the processing

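Of 105 counts and medians of members recomputed under 7 alternatives, 93 stayed within 1.5 times (counts) or 0.1 on the log2 scale (medians). No member past 2-fold changed direction, which none of these settings could have brought about. With 10 counts added to both averages, 4 members rather than 7 were higher and 6 rather than 7 lower in Id2-/-Id3-/- CD4SP cells than in control, and 3 rather than 5 were higher in the libraries labelled Id3-/-. Of all genes, 9.65% were then higher and 6.76% lower in Id2-/-Id3-/- cells, and 3.25% were higher in the libraries labelled Id3-/-. *Fasl* then had log2 ratios of -0.884 in the former and 0.987 in the latter, and *Cd40*, *Ltbr* and *Tnfsf4* were within 2-fold. With an average of at least 50 required, 27 members were left. Of these, 3 were higher and 6 lower in Id2-/-Id3-/- cells (median -0.147), beside 10.7% and 7.68% of all genes. In TFH cells 1 was lower (median 0.325), beside 6.39% of all genes. In lymphomas 3 were higher and 8 lower than control, beside 16.4% and 11.1% of all genes. Against Id2-/-Id3-/- cells 1 was higher and 4 were lower in lymphomas, beside 8.67% and 7.19%. With equal sums the members' median was -0.431 in lymphomas against control and -0.350 against Id2-/-Id3-/- cells, and in Id2-/-Id3-/- cells it went from 0.05 to -0.04. *Tnfrsf9* in Id2-/-Id3-/- cells was at 0.927 with equal sums and at 0.991 with the median ratio set to 0, and *Ltbr* and *Tnfrsf12a* in lymphomas were at 0.892 and 0.987 with equal sums. The filter added after the data were seen, a mean of the 5 averages of at least 10, left out *Cd40* and *Ltbr* and kept 32 members. These shifts follow from the construction of each alternative. No paired analysis was possible because the table holds group averages only, and leaving out each replicate in turn was not run for the same reason. The group averages carry no spread between libraries, and the authors' own p-values were not used, so no difference is set against replicate error here.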

Other observations

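Of 8 family genes outside the 38 members, 3 reached an average of 10 in some group. *Relt*, a receptor of lymphoid tissue, averaged 823 in control, 687 in the libraries labelled Id3-/-, 328 in Id2-/-Id3-/- CD4SP cells, 377 in TFH cells and 428 in lymphomas, and was past 2-fold lower than control in Id2-/-Id3-/- (log2 -1.33) and TFH cells (-1.12). *Edar*, the ectodysplasin receptor, averaged 17.8 in lymphomas and at most 2.41 in the other groups. *Ngfr*, the low-affinity neurotrophin receptor, averaged 18.6 in lymphomas and at most 4.70 elsewhere. *Tnfsf15*, *Tnfsf18*, *Eda*, *Eda2r* and *Tnfrsf11b* stayed under 10 in every group. Whether the lymphoma averages of *Edar* and *Ngfr* come from 1 tumor or from all 6 cannot be read from a group average.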
